A study of Mus musculus with 8 samples.

Results

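The Tsc22d family comprises 4 genes, Tsc22d1, Tsc22d2, Tsc22d3 and Tsc22d4, and was measured in the dorsal dentate gyrus of wild-type mice (WT) and of knockout mice (Cav3.1 KO) that lack Cav3.1, a T-type calcium channel encoded by Cacna1g. Its members were taken by gene symbol from the platform's probe annotation, which gave 1 probe for each gene, so 4 of the 23473 probes on the array. All 4 were detected on all 8 arrays and passed the filter on dim probes. Both groups were male C57BL/6J mice of 8 to 12 weeks, with 4 single-colour arrays of total RNA each. The labels give no allele for the knockout and do not tie arrays to individual animals, so a p-value here covers the scatter of the samples, some of which could be technical. The family was chosen by the difference of Tsc22d3 between these groups, which had a limma adjusted p of 0.00921 over all probes. That difference is therefore given as a description and supports nothing, while the paralogs came in by name.

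TSC22 domain proteins share a conserved TSC box followed by a leucine zipper, through which they form homodimers and heterodimers, and they lack a classical DNA-binding domain. Tsc22d3 encodes GILZ, the glucocorticoid-induced leucine zipper protein, whose transcription is driven by the glucocorticoid receptor and by FoxO factors. GILZ binds NF-kappa-B p65, AP-1 and Ras pathway proteins and restrains them. Tsc22d1 was first isolated as a clone stimulated by transforming growth factor beta, and the long isoforms of Tsc22d1, Tsc22d2 and Tsc22d4 associate with the pseudokinases NRBP1 and NRBP2 and with WNK kinases in the response to osmotic stress.

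The regions upstream of the annotated starts of Tsc22d3 are shown because glucocorticoid receptor and FoxO sites are the known inputs to this gene and it was the member that differed between the groups. The RefSeq promoter table (GRCm38.p6) held windows for 2 of the 4 members, 5 for Tsc22d1 and 3 for Tsc22d3. The 3 windows of Tsc22d3 are the 250 bases before each start, on the minus strand of chromosome X, and capitals mark a glucocorticoid receptor half-site.
chrX:140542669-140542918: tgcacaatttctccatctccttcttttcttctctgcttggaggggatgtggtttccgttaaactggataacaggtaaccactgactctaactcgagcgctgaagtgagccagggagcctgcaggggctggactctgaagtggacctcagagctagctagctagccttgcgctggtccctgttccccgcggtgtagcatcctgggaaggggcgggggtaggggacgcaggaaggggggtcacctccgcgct
chrX:140548572-140548821: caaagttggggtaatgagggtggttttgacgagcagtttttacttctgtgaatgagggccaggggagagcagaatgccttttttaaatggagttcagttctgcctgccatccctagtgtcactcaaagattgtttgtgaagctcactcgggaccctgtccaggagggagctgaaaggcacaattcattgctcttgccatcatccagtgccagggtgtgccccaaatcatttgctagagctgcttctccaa
chrX:140600523-140600772: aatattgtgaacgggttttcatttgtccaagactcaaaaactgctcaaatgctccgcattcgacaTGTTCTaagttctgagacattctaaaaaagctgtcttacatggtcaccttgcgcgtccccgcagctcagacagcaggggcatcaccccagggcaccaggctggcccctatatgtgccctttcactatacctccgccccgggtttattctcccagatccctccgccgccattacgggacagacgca
The half-site, searched as AGAACA on either strand, occurred in 1 of the 3 Tsc22d3 windows, where it starts 185 bases before the annotated start at the far upstream end of the gene, and in 1 of the 5 Tsc22d1 windows, 137 bases before a start. It occurred in 16.1% of all 32851 windows of this length. The complete element, the half-site followed by 3 bases of any kind and its reverse complement TGTTCT, was in 0 of the 8 windows and in 0.00913% of all windows, and the FoxO site GTAAACA was in 0 of the 8 and in 3.17% of all, again on either strand. These counts describe letters in short windows only. The Tsc22d3 probe is annotated to a non-coding transcript record of the gene, and which start gives the transcripts it detects was not given in the sources used here.

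On the scanner scale, Tsc22d3 had spot intensities of 599, 589, 724 and 536 on WT replicates 1 to 4 and of 967, 948, 1120 and 1069 on Cav3.1 KO replicates 1 to 4. The mean blank spot lay between 53.0 and 63.4, so the ratio of spot to blank ran from 9.68 to 12.1 on the WT arrays and from 14.96 to 18.7 on the Cav3.1 KO arrays. Every Cav3.1 KO array was brighter than every WT array, before any normalisation. In the authors' value table the same probe had intensities of 379, 334, 371 and 365 in WT and of 711, 572, 680 and 597 in Cav3.1 KO, again without overlap.

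After normalisation, the log2 intensity of Tsc22d3 was 9.21, 9.07, 9.33 and 9.20 on WT replicates 1 to 4 and 10.21, 9.84, 10.09 and 10.04 on Cav3.1 KO replicates 1 to 4. The WT mean was 9.20 ± 0.107 (SD, n = 4), the Cav3.1 KO mean was 10.04 ± 0.154 (SD, n = 4), and the lowest Cav3.1 KO array lay 0.50 above the highest WT array. The difference, Cav3.1 KO minus WT, was 0.84 (SE 0.083, 95% interval 0.65 to 1.03), or 1.79-fold (1.57 to 2.04). In bulk tissue, fewer or more cells that express a gene and less or more RNA per cell cannot be told apart. Among the 4 members, 1 was called by limma (adjusted p under 0.05 over all 21150 probes tested), where 0.288% of all probes were called, and 1 had groups that did not overlap, as had 4.95% of all probes. Both counts rest on Tsc22d3, the gene that brought the family in, and nothing is read from them.

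**Figure D1:**
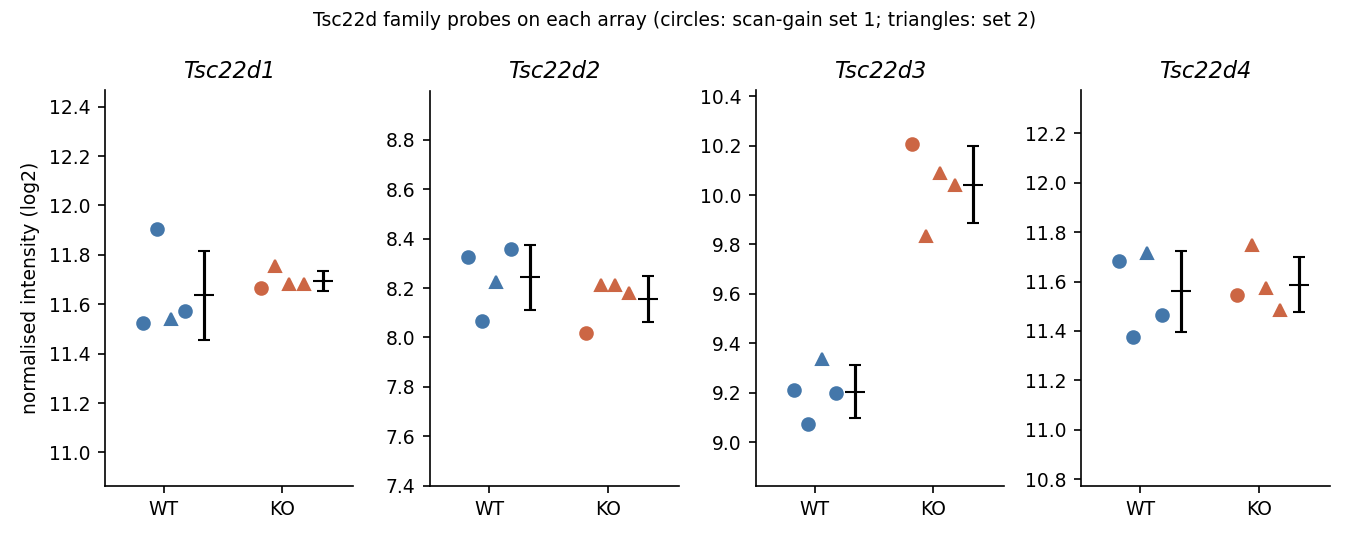
Normalised log2 intensity (vertical axis, with the same span in each panel) of the 4 Tsc22d probes on each array, for WT and Cav3.1 KO (KO), with the mean ± SD (n = 4) in black. Circles and triangles are the scan-gain sets 1 and 2 of the file headers. For Tsc22d3 the WT arrays lie at 9.07 to 9.33 and the Cav3.1 KO arrays at 9.84 to 10.21, while the groups overlap for the other 3 genes.

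Tsc22d1, the TGF-beta-stimulated member, had spots 48.9 to 73.6 times the brightness of the mean blank. Its normalised log2 intensity was 11.52, 11.91, 11.54 and 11.57 in WT and 11.67, 11.75, 11.68 and 11.68 in Cav3.1 KO. WT replicate 2 was the highest of all 8 arrays, and the other WT arrays were the lowest 3. The difference was 0.06 (SE 0.0824, 95% interval -0.13 to 0.25) and did not pass the test (limma adjusted p 0.975, exact two-sided permutation p 0.6). The interval runs from 0.914-fold to 1.19-fold, so a change of up to those sizes is within the error of these arrays. The sign turned with scaling to the 75th percentile and in the authors' value table.

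Tsc22d2, which has a long isoform of the kind that associates with NRBP1, had spots 3.98 to 6.13 times the brightness of the mean blank. Its normalised log2 intensity was 8.33, 8.07, 8.23 and 8.36 in WT and 8.02, 8.21, 8.21 and 8.18 in Cav3.1 KO. Cav3.1 KO replicate 1 lay below every WT array, and the other Cav3.1 KO arrays lay within the WT range. Cav3.1 KO minus WT was -0.09, with an SE of 0.0721 and a 95% interval from -0.25 to 0.08. The limma test was not passed, at an adjusted p of 0.909 and an exact two-sided permutation p of 0.229. It was negative under all 24 alternative settings, from -0.23 to -0.02, and passed the test under none of them.

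Tsc22d4, whose product is known as a regulator of liver lipid metabolism and insulin sensitivity, had normalised log2 intensities of 11.68, 11.38, 11.71 and 11.46 in WT and of 11.54, 11.75, 11.57 and 11.48 in Cav3.1 KO. Cav3.1 KO replicate 2 was the highest and WT replicate 2 the lowest array, and the groups overlapped. The difference was 0.03 (SE 0.0882, 95% interval -0.18 to 0.23), with a limma adjusted p of 0.995 and an exact two-sided permutation p of 0.771, and its sign turned under 8 of the 24 alternatives, scaling to the 75th percentile and the value table among them. Its spots were 44.3 to 66.4 times the brightness of the mean blank. The smallest p that the exact test can give with 4 against 4 arrays is 0.0286.

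The 4 probes scattered to a like extent among arrays of the same group. The residual SD was 0.131 for Tsc22d1, 0.114 for Tsc22d2, 0.133 for Tsc22d3 and 0.141 for Tsc22d4, which placed them at the percentiles 82.5, 75.9, 82.8 and 85.3 of all probes tested. WT replicate 2 was the lowest WT array for Tsc22d2, Tsc22d3 and Tsc22d4 and the highest for Tsc22d1.

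Tsc22d3 was then set against each paralog within the same array, which removes any factor that scales an array as a whole. With the WT mean set to 0, Tsc22d3 minus Tsc22d1 was 0.97, 0.51, 0.84 and 0.79 on Cav3.1 KO replicates 1 to 4, against -0.40 to 0.23 in WT. Tsc22d3 minus Tsc22d2 was 1.23, 0.67, 0.92 and 0.90, against -0.12 to 0.15 in WT. Tsc22d3 minus Tsc22d4 was 1.02, 0.44, 0.87 and 0.91, against -0.12 to 0.09 in WT. The groups stood apart for each of the 3 paralogs, and Cav3.1 KO replicate 2 was the lowest Cav3.1 KO array in all of them. Against the mean of the 3 paralogs the Cav3.1 KO arrays were higher by 0.84, with an SD of 0.22 (n = 4) around that mean, and an SD of 0.0901 (n = 4) among the WT arrays. No test is given, since Tsc22d3 was chosen for its difference, and the values show unequal change between probes and not that a paralog did not change.

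**Figure D2:**
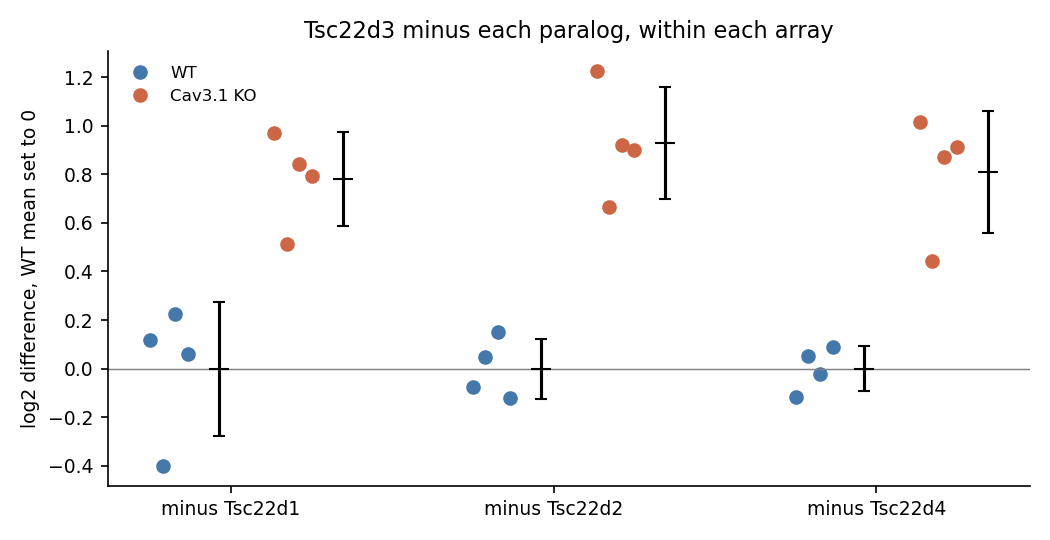
Tsc22d3 minus each paralog within each array, as a difference of normalised log2 intensities with the WT mean of each set to 0, for WT and Cav3.1 KO with mean ± SD (n = 4) in black. The Cav3.1 KO arrays lie at 0.44 to 1.23 and the WT arrays at -0.40 to 0.23.

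The file headers give lines relating 3 scanner gains, and these lines split the arrays into sets that are partly aligned with genotype. The slope between gains 1 and 3 was 0.244 to 0.247 on WT replicates 1, 2 and 4 and Cav3.1 KO replicate 1 (set 1), and 0.235 to 0.236 on WT replicate 3 and Cav3.1 KO replicates 2, 3 and 4 (set 2). Mean blank spots were 53.0 to 56.2 in set 1 and 59.7 to 63.4 in set 2. Tsc22d3 was higher in Cav3.1 KO by 1.04 within set 1 (3 WT arrays and 1 Cav3.1 KO array) and by 0.65 within set 2 (1 WT array and 3 Cav3.1 KO arrays). With the set as a block the difference was 0.85 (SE 0.102), while set 2 differed from set 1 by -0.02 (SE 0.102) at equal genotype. The Tsc22d3 call ended with this block (limma adjusted p 0.0538) and without WT replicate 4 (limma adjusted p 0.055), at differences of 0.85 and 0.84. The arrays also form 2 series of chip numbers, and the difference was 0.88 within the first (3 against 3 arrays) and 0.71 within the second (1 against 1). For the paralogs, the differences with the scan-gain set as a block were 0.08 for Tsc22d1, -0.13 for Tsc22d2 and -0.04 for Tsc22d4, with limma adjusted p-values of 0.863, 0.689 and 0.947.

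**Figure D3:**
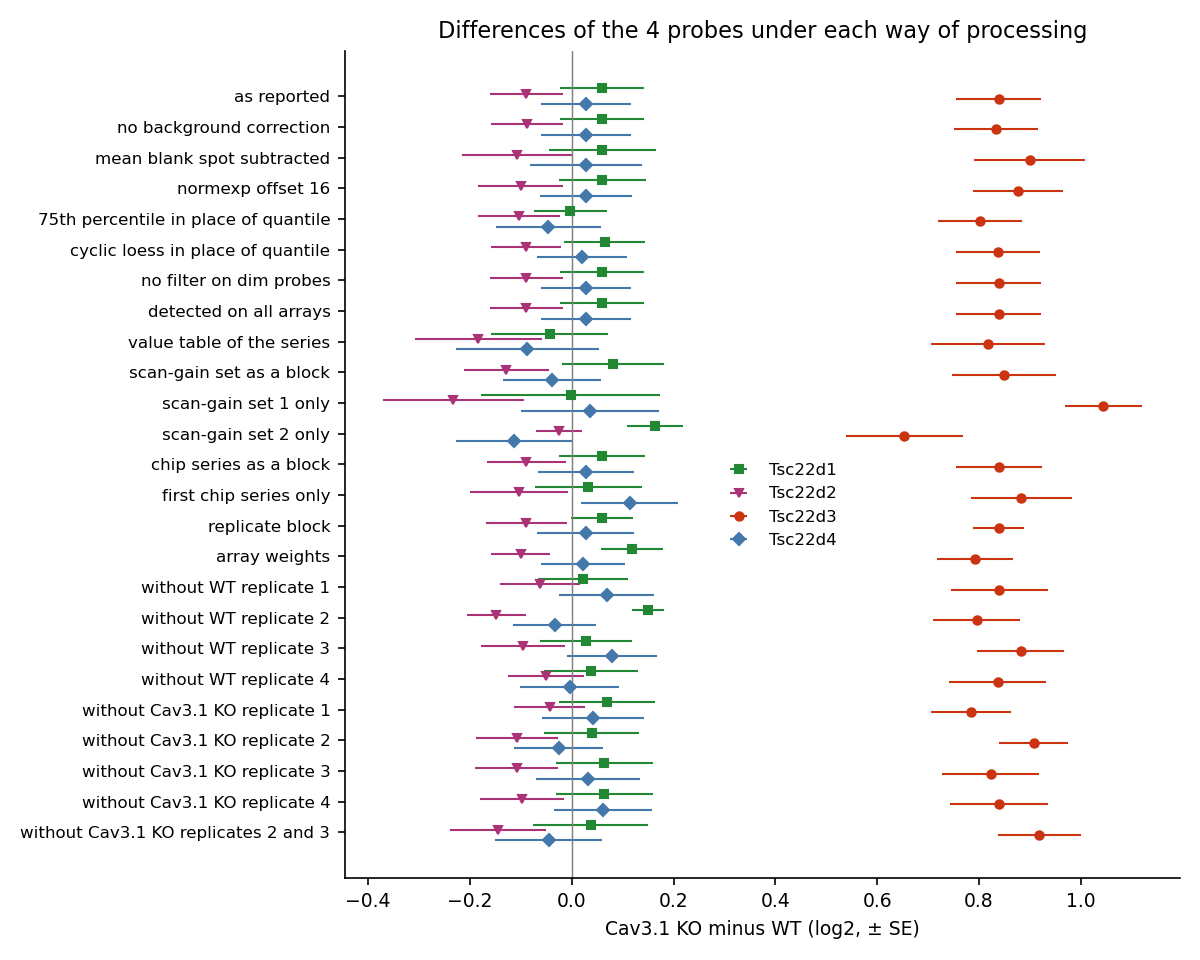
Difference Cav3.1 KO minus WT (horizontal axis, log2, with its SE) of the 4 probes as reported and under each of 24 alternative settings (vertical axis). Tsc22d3 stays between 0.65 and 1.04, and the other 3 genes lie between -0.23 and 0.16.

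Markers of other cells and neighbouring tissue were read on the same arrays. Of the markers of mature granule neurons, the principal cells of the labelled tissue, 10 of 10 passed the detection filter, with a list mean of 7.39 to 7.51 on the WT arrays against 7.27 to 7.43 on the Cav3.1 KO arrays. Of these 10, 7 were lower, 3 of them without overlap, where 2.53% of all probes lay below WT without overlap. The other 3 were higher, 1 of them without overlap (2.42% of all probes), which was Calb1 at 0.34 (SE 0.127, limma adjusted p 0.523). An unadjusted p under 0.05 was found for 5 of the 10, Calb1 among them, where 8.10% of all probes had one. C1ql2, which encodes a synaptic C1q-like protein, fell by 0.57 (SE 0.0509, limma adjusted p 0.00650). Thalamus and habenula markers (9 of 10 tested) summed to a linear intensity of 988 to 1680 in WT, against 1043 to 2682 in Cav3.1 KO, with list means of 7.86 and 7.81 on Cav3.1 KO replicates 2 and 3 but 6.91 and 6.77 on replicates 1 and 4. Choroid plexus markers (5 of 7 listed genes tested) summed to 5200 to 37439 in WT, against 449 to 32871 in Cav3.1 KO. The summed markers of endothelial cells and pericytes (8 of 8 tested) were 2564 to 2793 in WT, against 2065 to 2427 in Cav3.1 KO, and those of CA field pyramidal neurons (7 of 8 listed genes tested) 1494 to 1573, against 1233 to 1365. These 2 sums did not overlap between the groups, although the mean log2 levels of both lists did. Of the endothelial and pericyte markers 6 were lower and 2 higher, and 2 lay below WT without overlap (2.53% of all probes). Of the CA field markers 4 were lower and 3 higher, and 1 lay below WT without overlap. In both lists 0 lay above WT without overlap. Each list held 1 called gene, the endothelial tight-junction gene Cldn5, which fell by 0.79 (SE 0.0922, limma adjusted p 0.0182), and Bok, a Bcl-2 family gene, which fell by 0.65 (SE 0.0593, limma adjusted p 0.00650). Without that gene the sums overlapped, at 1801 to 1936 in WT against 1659 to 1922 for the other 7 endothelial and pericyte markers, and at 876 to 988 against 828 to 1019 for the other 6 of the CA field. Of the astrocyte markers (8 of 8 tested) the connexin gene Gjb6 rose by 0.38 (SE 0.0481, limma adjusted p 0.0269). The median difference of that list was 0.0114, with 6 higher and 2 lower. The sums of all 8 overlapped, at 10559 to 11051 in WT against 9478 to 11817 in Cav3.1 KO. Those of the 7 markers without Gjb6 overlapped too. The part of these genes in the Tsc22d3 difference was not tested. The Tsc22d3 difference was 0.92 without Cav3.1 KO replicates 2 and 3, against 0.84 with all arrays. The targeted gene Cacna1g, which encodes Cav3.1, differed by -0.08 (SE 0.0508, limma adjusted p 0.816), and where its probe lies relative to the deletion was not given in the sources used here, so it does not check the genotype.

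Genes that the glucocorticoid receptor is known to induce, the class to which Tsc22d3 belongs, were mostly higher in Cav3.1 KO. Of 22 listed genes other than Tsc22d3, 20 were tested, 19 were higher and 1 lower, 5 rose by limma adjusted over all probes and 0 fell, 12 had groups that did not overlap, all of them higher, and the median difference was 0.23, against -0.000775 over all 21150 probes. Over all probes 49.3% were higher, 0.199% were called higher and 0.0898% lower, and 2.42% lay above WT without overlap. The list's median was 0.48 with the mean blank spot subtracted, 0.43 in the value table and 0.37 with a normexp offset of 16. The list was drawn up with earlier results of these data known, so its direction is not independent evidence. The 5 were the kinase gene Sgk1 (1.24, SE 0.133), the arrestin-domain gene Arrdc2 (0.99, SE 0.0925), Nfkbia (0.91, SE 0.0924), which encodes the NF-kappa-B inhibitor, the cell-cycle inhibitor gene Cdkn1a (0.86, SE 0.0579) and Hif3a (0.19, SE 0.0262), a hypoxia-inducible factor subunit. Their limma adjusted p ran from 0.00127 for Cdkn1a to 0.0406 for Hif3a, and Hif3a was not called when any 1 of the 8 arrays was left out (limma adjusted p 0.0670 to 0.150). The next genes by p were Errfi1, which encodes an inhibitor of the EGF receptor (0.56, SE 0.097, limma adjusted p 0.0848), the kinase gene Map3k6 (0.60, SE 0.108, limma adjusted p 0.0942) and the Kruppel-like factor gene Klf15 (0.27, SE 0.0501, limma adjusted p 0.0988). The sizes for Cdkn1a and Hif3a moved with the background correction, to 2.23 and 0.81 with the mean blank spot subtracted and to 2.17 and 0.75 in the value table. Both probes were dim in WT, with mean log2 intensities of 6.08 and 6.02, against 8.36 for Sgk1. The listed gene Cebpd, left out as too dim, lay at 5.72 to 5.77 in WT. Fkbp5, which encodes a co-chaperone of the receptor and is often read as its target, differed by 0.15 (SE 0.15, limma adjusted p 0.943) and was picked out after its value was seen. With the scan-gain set as a block 3 of the 20 were called, where 0.109% of all probes were. Without WT replicate 3 again 3 were called (0.123% of all probes), without WT replicate 4 there were 2 (0.0757%), and without Cav3.1 KO replicates 2 and 3 there was 1 (0.0804%). The count was 0 within the first chip series (0.0331%).

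**Figure D4:**
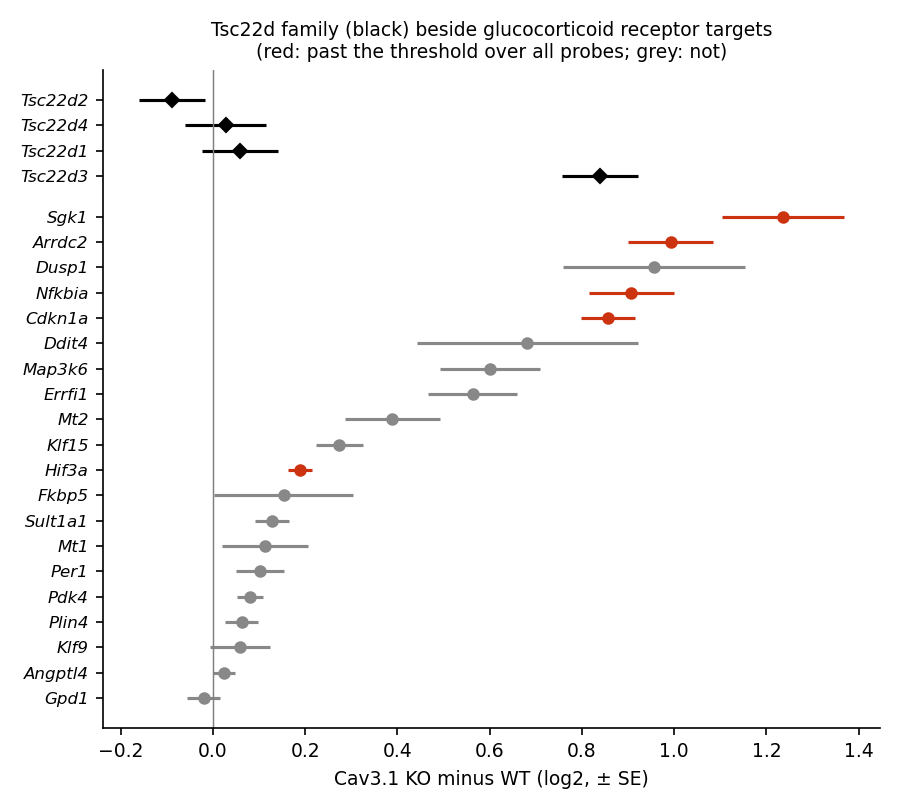
Difference Cav3.1 KO minus WT (horizontal axis, log2, with its SE) of the 4 Tsc22d genes (black) and of 20 glucocorticoid receptor targets (red where the limma adjusted p over all probes was under 0.05, grey otherwise). Tsc22d3 lies at 0.84 among the higher targets, whose values run from -0.02 for Gpd1 to 1.24 for Sgk1, and its 3 paralogs lie between -0.09 and 0.06.

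The receptors and chaperones through which glucocorticoids act gave no call by limma. Of 7 tested, 6 were lower and 1 higher, with a median of -0.08. That median was -0.18 in the value table, 0.00531 within scan-gain set 2 and -0.03 without Cav3.1 KO replicates 2 and 3. An unadjusted p under 0.05 was found for 1 of the 7 (8.10% of all probes had one). The glucocorticoid receptor gene Nr3c1 differed by -0.08 (SE 0.0326, limma adjusted p 0.559), the chaperone gene Hsp90aa1 by 0.22 (SE 0.1, limma adjusted p 0.645), and Hsd11b1, whose enzyme regenerates active glucocorticoid, by -0.13 (SE 0.0924, limma adjusted p 0.882). Of the FoxO factors and their targets, 12 were tested, 7 were higher, 0 were called by limma, 4 had an unadjusted p under 0.05 (8.10% of all probes had one), and 3 lay above WT without overlap (2.42% of all probes), with a median of 0.04. Among them Txnip, the thioredoxin-interacting protein gene, differed by 0.56 (SE 0.108, limma adjusted p 0.12), Trib1 by 0.15 (SE 0.0362, limma adjusted p 0.217) and the insulin receptor substrate gene Irs2 by 0.19 (SE 0.064, limma adjusted p 0.42). The list held 1 call with the 75th percentile and 1 with array weights. Over all 21150 probes these settings gave 110 and 124 calls, against 61 as reported. The list's median was -0.03 in the value table and 0.09 without Cav3.1 KO replicate 1.

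Of the genes whose proteins GILZ binds or acts on, 7 were tested. By limma 0 were called (0.288% of all probes were), and 2 had an unadjusted p under 0.05 (8.10% of all probes had one). Of the 7, 5 were lower, with a median of -0.05 (-0.18 in the value table and -0.16 within scan-gain set 1). The transcription factor gene Cebpb differed by -0.29 (SE 0.053, limma adjusted p 0.0984), with groups that did not overlap, as had 2.53% of all probes in the lower direction, the AP-1 subunit gene Fos by 0.55 (SE 0.203, limma adjusted p 0.503) and Jun by -0.09 (SE 0.0633, limma adjusted p 0.848). Of the NRBP and WNK genes tied to the long isoforms of the paralogs, 11 were tested, 7 were higher, and 0 were called by limma or had an unadjusted p under 0.05, with a median of 0.02 (-0.02 in the value table). The 3 with the smallest p were the WNK kinase genes Wnk4 (-0.05, SE 0.0306, limma adjusted p 0.818) and Wnk2 (0.07, SE 0.0644, limma adjusted p 0.936) and the kinase gene Oxsr1 (-0.06, SE 0.0793, limma adjusted p 0.971). Of the TGF-beta signalling genes, 11 were tested, 4 were higher and 0 were called by limma. An unadjusted p under 0.05 was found for 1 of them (8.10% of all probes had one). The median was -0.01 (0.04 with the 75th percentile and -0.10 in the value table). Tgfb2, which encodes a ligand, differed by 0.17 (SE 0.0678, limma adjusted p 0.569), the receptor gene Tgfbr2 by -0.09 (SE 0.0503, limma adjusted p 0.758) and the signal transducer gene Smad3 by -0.04 (SE 0.03, limma adjusted p 0.897).

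Likeness to Tsc22d3 was described by Pearson's r over the 8 arrays, for 17530 probes of established genes. Since Tsc22d3 separated the groups, this measure picks genes that separate them too. The 5 closest were Cmtm3 (0.992), Dennd3 (0.989), the lysophosphatidylcholine transporter gene Mfsd2a (0.982), the glycogen-targeting phosphatase subunit gene Ppp1r3g (0.980) and Fam177a2 (0.976), which has a close copy that its probe may also read. They were higher in Cav3.1 KO by 0.38, 0.19, 0.50, 0.40 and 0.71, of which that of Dennd3 was not called (limma adjusted p 0.0771). Their spots were on average 2.04, 1.32, 3.57, 2.36 and 4.49 times as bright as the blank, in the same order. The paralogs had r values of 0.083 for Tsc22d1, -0.427 for Tsc22d2 and 0.12 for Tsc22d4. When the group means were removed, the 5 with the closest deviations were Olfr330 (0.98), Akna (0.974), Ccl25 (0.972), the proteasome activator gene Psme1 (0.969) and the receptor-modifying gene Ramp2 (0.966). Except for Psme1, whose spots were on average 6.80 times as bright as the blank, these were dim probes at 1.10 to 1.81 times the blank, and their differences between groups ran from -0.04 to 0.10. The paralogs' deviations had values of -0.627, -0.121 and 0.0442 in the same order. These are descriptions over 8 arrays that share a normalisation, and the highest of all probes compared.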

How the data were processed

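Each scanner file, per the file headers, gives an unnormalised spot intensity (the median of its pixels at 635 nm) and a flag for each of 3 scan gains, whose merging was not given in the sources used here. The authors' deposited value table is on a linear intensity scale with a median of 25 on each array, by a normalisation not named. Per the labels' protocols, amplified RNA was coupled to Cy5 and hybridised to a TORAY chip.

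The scanner's background column was not used as a local background. All spots entered a normexp correction (offset 50), and the 23473 probes were then log2 transformed and brought to common quantiles. Probes above the 95th percentile of blank spots on at least 4 of 8 arrays and without a bad flag were tested (2239 dim and 84 flagged left out, 21150 tested). The test was limma (version 3.58.1, R 4.3.3), with Benjamini-Hochberg adjustment over all probes and a threshold of 0.05. Each listed gene was represented by its brightest probe. The number of arrays limits the precision.

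The members and lists were chosen with earlier results of these data known. From each pathway list the text names the called members and the 3 next by p, and for likeness the 5 highest values. The rule covered the 11 marker lists too, of which only the called members are named here, and Calb1, which was picked out after its value was seen. Of all probes, 20690 had 1 gene symbol, and the gene IDs of the 4 members matched RefSeq. Alternatives covered background, scaling, filter, blocks, weights and left-out arrays.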

Additional observations from a re-analysis of the deposited data

Results flagged for a closer look

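In 3 of the 8 groups of 4 values (4 genes in 2 genotypes), 1 array had a gap to its nearest neighbour that took most of the group's range. The flag is relative to that range, so a tight group can carry it at a small distance. For Tsc22d1 in WT the gap was 0.877 of the range, with WT replicate 2 at 11.91 and the others at 11.52 to 11.57. For Tsc22d1 in Cav3.1 KO it was 0.837, with replicate 2 at 11.75 and the others at 11.67 to 11.68, where the residual SD of this probe was 0.131. For Tsc22d2 in Cav3.1 KO it was 0.840, with replicate 1 at 8.02 and the others at 8.18 to 8.21. Chance flags about 1 in 20 groups. Without WT replicate 2 the Tsc22d1 difference was 0.15 (limma adjusted p 0.146), and without Cav3.1 KO replicate 1 the Tsc22d2 difference was -0.04 (limma adjusted p 0.947).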

How the results depend on the processing

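The Tsc22d3 difference kept its direction under all 24 alternatives and its call under 19. Since the family was chosen by this difference on these same arrays, these counts describe how it depends on the processing and support nothing. Of the 4 probes, 0 were called with the scan-gain set as a block (0.85, adjusted p 0.0538), within scan-gain set 1 (1.04, adjusted p 0.231) or set 2 (0.65, adjusted p 0.623), within the first chip series (0.88, adjusted p 0.098) and without WT replicate 4 (0.84, adjusted p 0.055), all by limma. The single-set fits hold 1 array of a group, which is assumed to vary like the other, and these and the chip series hold fewer arrays. The cause of the other losses was not tested. The scan-gain subsets, the marker sums without called genes, the chip series as a block and the fit without Cav3.1 KO replicates 2 and 3 were chosen after seeing the data. Leaving out 1 array gave 0.78 to 0.91 for Tsc22d3, 0.02 to 0.15 for Tsc22d1, -0.15 to -0.04 for Tsc22d2 and -0.0335 to 0.0792 for Tsc22d4, with 0 to 1 members called. Tsc22d3 minus the paralog mean was 0.76 to 0.94 then, and 1.11 within scan-gain set 1. The small Tsc22d1 difference turned to -0.00290 with the 75th percentile, -0.0435 in the value table and -0.00187 within set 1. That of Tsc22d4 turned to -0.0459, -0.0873, -0.0385, -0.113 and -0.0454 with the 75th percentile, in the value table, with the scan-gain block, within set 2 and without Cav3.1 KO replicates 2 and 3. No paralog was called under any of the 24. Deviations of same-numbered arrays correlated at -0.115 to 0.0109 over the probes, so no shared pattern was seen. Whether same-numbered arrays were matched was not given in the sources used here. With the replicate number as a block, Tsc22d3 differed by 0.84 (limma adjusted p 0.0398). The calls over all probes then fell to 8 from 61, and those in the glucocorticoid list to 0 from 5. The calls over all probes numbered 23 with the scan-gain block, 110 with the 75th percentile (62 higher and 48 lower, against 42 and 19), 124 with array weights and 34 in the value table, and 7 in the first chip series. Leaving out 1 array gave 2 to 6 calls in the glucocorticoid list, where 16 to 49 of all 21150 probes were called.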
